A study of Mus musculus with 14 samples.

Results

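Ribosome biogenesis factors are the proteins that transcribe, modify, cut and fold ribosomal RNA and assemble it with ribosomal proteins. The 40 genes described here were listed by gene name, and all 40 were found among the 46959 gene entries of the count table. They comprise 4 genes of RNA polymerase I transcription, 4 of the box C/D snoRNP and 4 of the box H/ACA snoRNP. The others are 5 nucleolar proteins of several functions, 10 assembly factors of the small ribosomal subunit and 13 of the large subunit. A further list of 124 genes of the same process, of which 122 were found, is given beside them.

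RNA was sequenced from 14 libraries of Eµ-Myc B-cell lymphoma, a mouse model whose Myc transgene, driven by the immunoglobulin heavy chain enhancer, makes B-lineage cells malignant. The ASNase lymphoma and the vehicle lymphoma were lymph node tumours of wild-type C57BL/6 mice engrafted with cells of line 506, and were treated from day 7 with L-asparaginase (ASNase), which degrades asparagine, or with vehicle (NaCl) until the disease endpoint. The 12 cultured lines, each from a separate Eµ-MycTg/+ mouse, received no treatment and were grown for 24 h in medium with 0.37 mM added L-asparagine. The genotype label is WT for every library, all of them carry the transgene, and each line and each treatment had 1 library. Total counts were 25690935 in the ASNase lymphoma, 27715832 in the vehicle lymphoma and 24597230 to 32614751 in the lines. Values are CPM (a gene's share of its library's counts, times 1e6) after TMM scaling unless a value per length is named.

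Ribosomes are made in the nucleolus. RNA polymerase I transcribes a long precursor there, snoRNPs (complexes of small nucleolar RNAs and proteins) modify its bases and sugars, and assembly factors cut and fold it into the small and the large subunit. Myc, a transcription factor, is known to raise the expression of many genes of this process, and with its partner Max it binds the DNA motif CACGTG, called the E-box.

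Because Myc binding is known at that motif, the E-box was searched in the window from 250 bases before to 50 bases after each gene's RefSeq start (GRCm38.p6). CACGTG reads the same on both strands, so 1 search covers both. Of the 35 members with such a window, 7 held the motif (20%), against 8.09% of 27025 genes with a window and 18 of 96 other biogenesis genes (18.75%). The 27025 genes were not limited to those expressed in these cells, so their share is not matched to the members. The 7 were Imp4, Nop2, Mybbp1a, Pes1, Utp20, Tsr1 and Wdr43. The motif began at position -121 from the start in Imp4 and -60 in Nop2, and in the other 5 it lay 2 to 40 bases after the start. For Nop2 and Mybbp1a the bases after this start were not found in the reference transcripts used as a check, so their positions depend on the start chosen. No window was read for Fbl, Rrs1, Npm1, Rrp12 and Bop1. The stretches around the motif are shown, 5′ to 3′ on the gene's strand with the E-box in capitals, for the 6 of these genes with the smallest unadjusted p for the slope on Myc. They show that the bases around the motif differ. The stretches of Imp4 and Nop2 end just before the start, and in the others the start is not marked.
Imp4, chr1:34439679-34439828, + strand: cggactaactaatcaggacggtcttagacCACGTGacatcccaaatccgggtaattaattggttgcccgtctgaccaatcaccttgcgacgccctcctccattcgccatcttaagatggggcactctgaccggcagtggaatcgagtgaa
Nop2, chr6:125131733-125131882, + strand: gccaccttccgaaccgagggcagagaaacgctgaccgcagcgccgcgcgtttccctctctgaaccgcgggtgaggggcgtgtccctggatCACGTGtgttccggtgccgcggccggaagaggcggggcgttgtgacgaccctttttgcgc
Mybbp1a, chr11:72441347-72441376, + strand: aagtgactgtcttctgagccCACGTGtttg
Pes1, chr11:3963965-3963994, + strand: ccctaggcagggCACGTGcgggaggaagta
Utp20, chr10:88826765-88826794, - strand: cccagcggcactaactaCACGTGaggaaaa
Tsr1, chr11:74898092-74898121, + strand: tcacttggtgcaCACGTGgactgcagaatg

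All 40 members passed the filter on low counts in every test. Per length, Npm1 was the most abundant in the lines at 1305 RPKM (CPM for each kilobase of exon), followed by Ncl at 395, Fbl at 359 and Nolc1 at 252 RPKM. Noc3l and Wdr12 were the lowest, at 17.4 and 15.4 RPKM. The summed level of the 40 members was 10905 CPM in the ASNase lymphoma and 11430 CPM in the vehicle lymphoma, against 13054 to 21597 CPM in the lines. Both lymphomas lay below every line in this sum, and line 504 was the lowest line. By member, line 504 was the lowest line for 29 of 40 genes and stood above the median of the lines for 0 of 40, while lines 136 and 506 stood above it for 32 each. The ASNase lymphoma exceeded the median of the lines for 2 members and the vehicle lymphoma for 1. These counts by member were not taken over all genes.

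**Figure D1:**
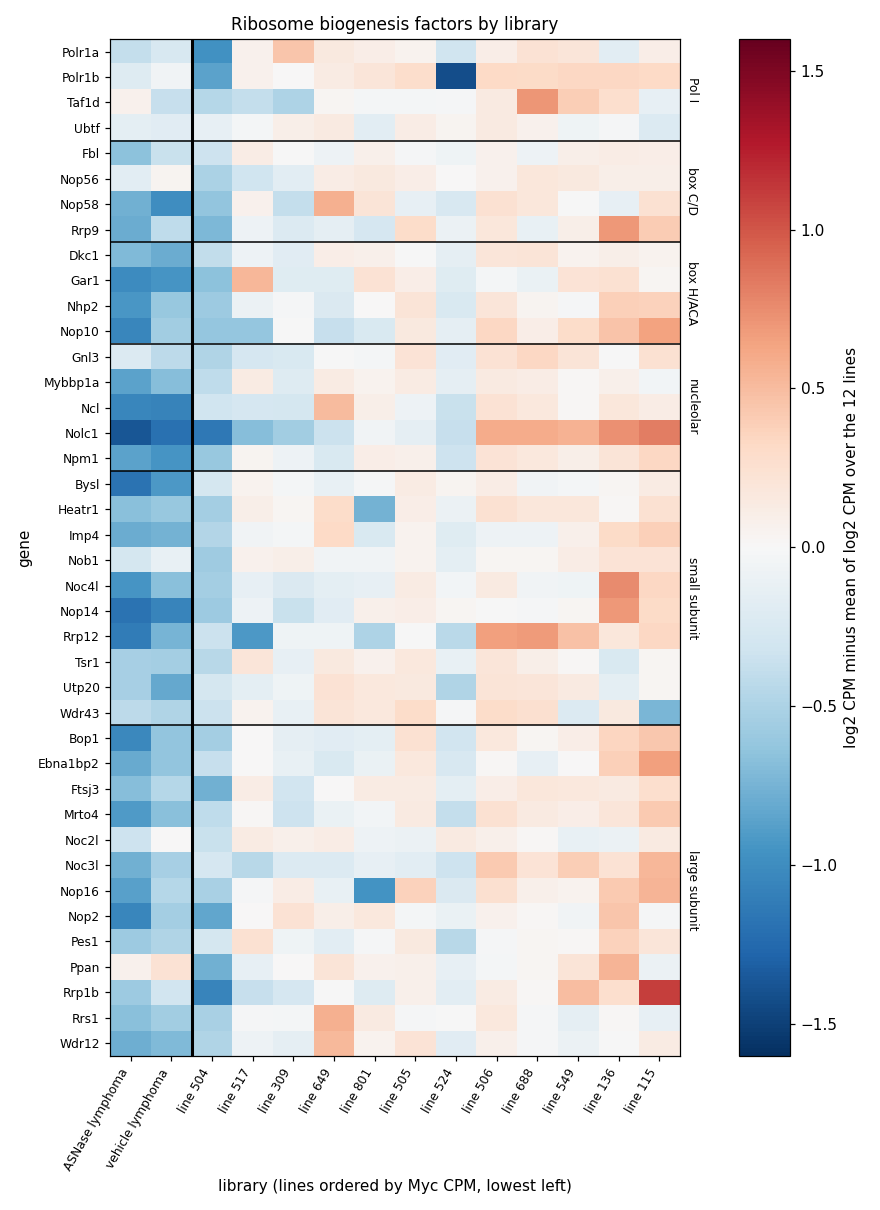
Level of each of the 40 genes in each library, as log2 CPM minus the mean of log2 CPM over the 12 lines (colour), with genes in rows by role and libraries in columns. The 2 lymphomas stand left of the black line and the lines follow from lowest to highest Myc CPM; most rows are blue in both lymphomas and in line 504, the line with the lowest Myc.

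Exons of 16 members overlap those of a gene on the opposite strand, and the strand setting of the counting is not given in the sources used here, so reads may have been divided or lost. The neighbour's counts exceeded 10% of the member's own for 3 members, with 38.1% for Nop56 (Idh3b), 12.9% for Dkc1 (Mpp1) and 201% for Bysl (Ccnd3), and the values of these 3 are uncertain. Chromosome positions given for the members are those of the deposited table on mm10.

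The comparison of the lymphomas with the cultured lines asks how tumours in the animal differ from the cells in culture. Many transcripts of ribosome biogenesis were lower in the tumours. Of the 40 members, 21 fell and 0 rose in edgeR's quasi-likelihood test at an adjusted p under 0.05 (0 rose at an unadjusted p under 0.05 or in DESeq2), while of all 17450 genes tested 11.1% fell and 13.4% rose. The median log2 fold change over the members was -0.70, against -0.01 over all genes, and 39 of 40 members had a negative value. Both lymphomas lay below all 12 lines for 22 of 40 members, against 12.5% of all genes, and the other 18 members overlapped the lines. A gene could pass the filter through a single lymphoma library, and 17450 genes were tested here against 10697 over the lines only. Genes near 0 in the lines can hardly fall, so the shares and median of all genes are not matched to the members' level. The same holds for the shares of genes that fell given below. DESeq2 called 26 members lower, against 13.3% of all genes: the 21 of edgeR and Nop10, Nolc1, Heatr1, Rrp12 and Ftsj3. In edgeR, values of members that fell ran from -1.15 for Nop14 to -0.51 for Fbl.

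The role groups had different shares of members that fell, and the differences between them were not tested. Among the genes of RNA polymerase I transcription 0 of 4 fell, with 0 at an unadjusted p under 0.05 and 0 in DESeq2. In the box C/D snoRNP 2 of 4 fell, in the box H/ACA snoRNP 3 of 4 and among the nucleolar proteins of several functions 3 of 5. Among small subunit factors 6 of 10 fell and among large subunit factors 7 of 13. The median log2 fold changes of these groups, in the same order, were -0.20, -0.58, -0.82, -0.92, -0.74 and -0.69.

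In RNA polymerase I transcription, Ubtf, the factor that keeps ribosomal DNA open for transcription (chromosome 11, 102304560 to 102319742), had 409.8 CPM in the ASNase lymphoma and 402 CPM in the vehicle lymphoma, against 392, 461 and 504 CPM as the lowest, median and highest line. The lymphomas lay inside the range of the lines, and the log2 fold change of -0.17 (SE 0.11) did not pass the test (edgeR adjusted p = 0.293). Taf1d, a subunit of the selectivity factor that places the polymerase on its promoter, had 120.3 CPM in the ASNase lymphoma and 88.6 CPM in the vehicle lymphoma, against 81.2, 112 and 187 CPM as the lowest, median and highest line. The lymphomas lay on opposite sides of the median line, and the log2 fold change of -0.19 had an SE of 0.26 (edgeR adjusted p = 0.660). Polr1a and Polr1b, the catalytic subunits of the polymerase, also overlapped the lines, with log2 fold changes of -0.35 and -0.21 (edgeR adjusted p = 0.348 and 0.723).

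In the box C/D snoRNP, which methylates the ribose of ribosomal RNA, Fbl, the methyltransferase itself (chromosome 7, 28169748 to 28179269), had 263 CPM in the ASNase lymphoma and 325 CPM in the vehicle lymphoma. The lowest, median and highest line had 329.9, 424 and 452 CPM. Both lymphomas lay below all lines, the vehicle lymphoma by less than the ASNase lymphoma, and Fbl fell by 0.51 on the log2 scale (SE 0.12, edgeR adjusted p = 0.00768). Nop58, a core scaffold protein, fell too (-0.92, SE 0.26, edgeR adjusted p = 0.0208), whereas Nop56, its partner in the core, had a log2 fold change of -0.08 (SE 0.16) and 482 and 555 CPM in the ASNase and vehicle lymphomas against 545 ± 73.5 CPM in the lines (SD, n = 12). Rrp9, which binds the U3 snoRNA, had 66.4 CPM in the ASNase lymphoma and 87.4 CPM in the vehicle lymphoma, against 70.1, 109 and 187 CPM as the lowest, median and highest line. The ASNase lymphoma was below every line and the vehicle lymphoma was not, and Rrp9 did not pass the test (-0.64, SE 0.28, edgeR adjusted p = 0.113).

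In the box H/ACA snoRNP, which turns uridine into pseudouridine, Dkc1, the pseudouridine synthase dyskerin (chromosome X, 75095854 to 75109777), had 281 CPM in the ASNase lymphoma and 265 CPM in the vehicle lymphoma. The lowest, median and highest line had 350.5, 477 and 531 CPM. The groups did not overlap, and Dkc1 fell by 0.76 on the log2 scale (SE 0.15, edgeR adjusted p = 0.00255). The core proteins Gar1 and Nhp2 fell as well, with log2 fold changes of -1.0 and -0.80 (edgeR adjusted p = 0.00980 and 0.0180). Nop10, the smallest core protein, had 87.4 CPM in the ASNase lymphoma and 122 CPM in the vehicle lymphoma, against 117, 187 and 282 CPM as the lowest, median and highest line. The vehicle lymphoma overlapped the lowest lines, and Nop10 did not pass the edgeR test (-0.85, SE 0.31, edgeR adjusted p = 0.0629; DESeq2 adjusted p = 0.0391).

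Among the nucleolar proteins of several functions, Mybbp1a (chromosome 11, 72441355 to 72451768) is a Myb-binding protein that takes part in ribosomal RNA transcription and processing. It had 576 CPM in the ASNase lymphoma and 653 CPM in the vehicle lymphoma. The lowest, median and highest line had 788, 1096 and 1158 CPM. The groups did not overlap, and Mybbp1a fell by 0.78 on the log2 scale (SE 0.15, edgeR adjusted p = 0.00248). Ncl, the RNA-binding protein nucleolin, had 1913 CPM in the ASNase lymphoma and 1885 CPM in the vehicle lymphoma, against 4024 ± 755 CPM in the lines (SD, n = 12), and fell (-1.08, SE 0.23, edgeR adjusted p = 0.00427). Npm1, the chaperone nucleophosmin, had 1891 and 1777 CPM in the ASNase and vehicle lymphomas, against 3478 ± 594 CPM in the lines (SD, n = 12), and fell (-0.92, SE 0.22, edgeR adjusted p = 0.00856). Npm1 is known to have processed copies in the genome, so its count may include or lose reads of these.

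Nolc1, also called Nopp140, a phosphoprotein that binds both kinds of snoRNP (chromosome 19, 46075863 to 46085528), had the most negative value of the members but did not pass the edgeR test. It had 323 CPM in the ASNase lymphoma and 365 CPM in the vehicle lymphoma, against 380.1, 783 and 1472 CPM as the lowest, median and highest line. Both lymphomas lay below every line, but the lines themselves spread 3.87-fold, and the log2 fold change of -1.41 (SE 0.50) had an edgeR adjusted p = 0.0567 and a DESeq2 adjusted p = 0.0158. Gnl3, the GTPase nucleostemin, had a log2 fold change of -0.34 (SE 0.19, edgeR adjusted p = 0.225).

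Among the small subunit factors, Bysl, the homologue of a yeast protein needed for processing of small subunit RNA (chromosome 17, 47599331 to 47611492), had the smallest p of all members, with the overlap with Ccnd3 named above. It had 43.2 CPM in the ASNase lymphoma and 52.1 CPM in the vehicle lymphoma, against 81.2, 99.0 and 108 CPM as the lowest, median and highest line. The lines lay close together and both lymphomas lay far below them, with a log2 fold change of -1.05 (SE 0.12, edgeR adjusted p = 5.00e-05). Nop14, a scaffold of the early small subunit particle, had 70.1 CPM in the ASNase lymphoma and 76.4 CPM in the vehicle lymphoma, against 106, 159 and 256 CPM as the lowest, median and highest line. It fell (-1.15, SE 0.26, edgeR adjusted p = 0.00650), and its partner Noc4l fell too (-0.84, edgeR adjusted p = 0.0326). Imp4, a protein of the U3 snoRNP, Utp20, a large scaffold of the early particle, and Tsr1, a GTPase-like factor of the late particle, fell by 0.80, 0.69 and 0.55 on the log2 scale (edgeR adjusted p = 0.0123, 0.0149 and 0.0244).

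The other 4 small subunit factors did not pass the edgeR test. Rrp12, needed for export of the subunits in yeast, had a log2 fold change of -1.01 (SE 0.38), and Heatr1, a scaffold of the early particle, of -0.67 (SE 0.24). Wdr43, a subunit of the early U3-bound particle, had -0.48 (SE 0.23), and Nob1, the nuclease that makes the final cut of small subunit RNA, -0.21 (SE 0.16). Their edgeR adjusted p lay between 0.0567 and 0.368, while DESeq2 called Rrp12 and Heatr1 (adjusted p = 0.0352 and 0.0387).

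Among the large subunit factors, Wdr12 (chromosome 1, 60069785 to 60098645) forms the PeBoW complex with Bop1 and Pes1, which is needed to process large subunit RNA. Wdr12 had 106 CPM in the ASNase lymphoma and 112 CPM in the vehicle lymphoma, against 131, 180.3 and 259.5 CPM as the lowest, median and highest line. The groups did not overlap, and all 3 partners fell, with log2 fold changes of -0.76 for Wdr12, -0.86 for Bop1 and -0.55 for Pes1 (edgeR adjusted p = 0.0130, 0.0146 and 0.0410). Mrto4, which holds the place of a stalk protein in the nascent subunit, Nop2, a methyltransferase of large subunit RNA, Ebna1bp2, an early assembly factor, and Rrs1, which helps to place the 5S ribosomal RNA, fell by 0.81, 0.82, 0.75 and 0.63 on the log2 scale. Their edgeR adjusted p were 0.0133, 0.0198, 0.0342 and 0.0342.

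Rrp1b, a nucleolar homologue of a yeast processing factor (chromosome 17, 32036100 to 32062865), had 163 CPM in the ASNase lymphoma and 198 CPM in the vehicle lymphoma, against 117, 245 and 524 CPM as the lowest, median and highest line. Both lymphomas lay inside the wide range of the lines, and Rrp1b did not pass the test (-0.53, SE 0.39, edgeR adjusted p = 0.361). Noc3l and Nop16, assembly factors of the pre-large subunit, and Ftsj3, the homologue of a yeast methyltransferase of large subunit RNA, had log2 fold changes of -0.69, -0.71 and -0.59 without a call in edgeR, and DESeq2 called Ftsj3 (adjusted p = 0.0489). Noc2l, a partner of Noc3l, had -0.17. Ppan, the homologue of a yeast large subunit factor, had 258 CPM in the ASNase lymphoma and 289 CPM in the vehicle lymphoma against 252 ± 49.8 CPM in the lines (SD, n = 12), the single positive value among the members (0.12, SE 0.22, edgeR adjusted p = 0.737).

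**Figure D2:**
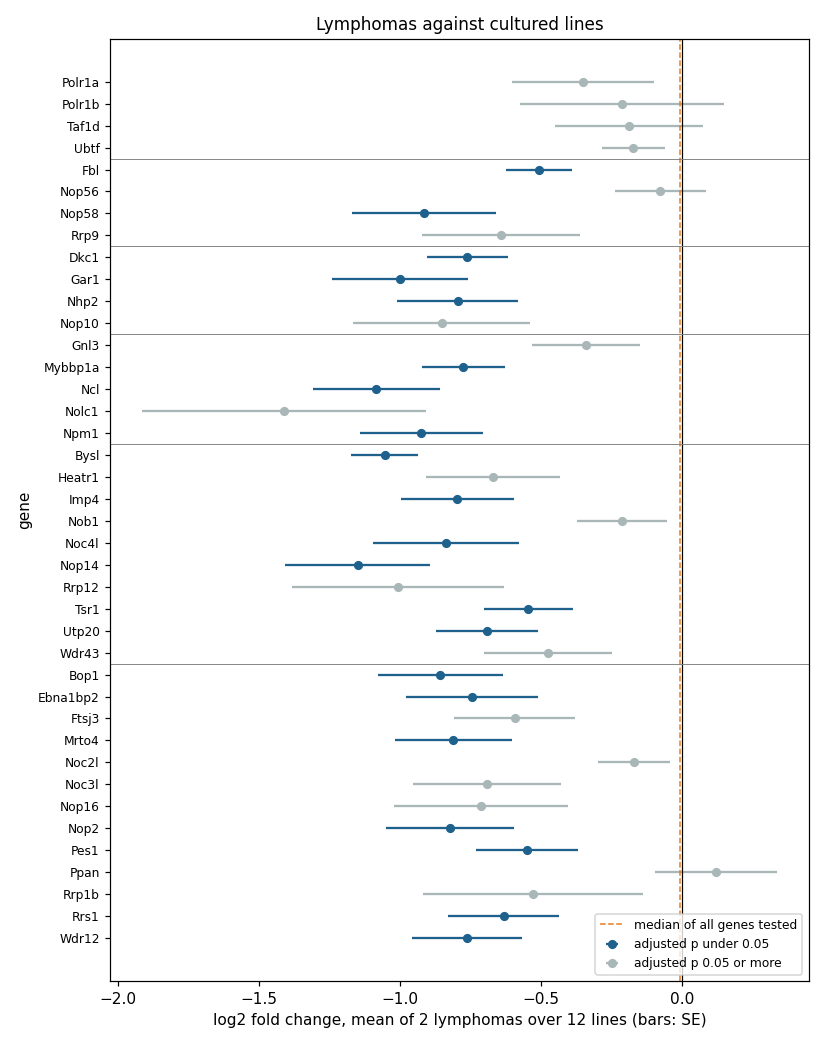
Log2 fold change of each of the 40 genes, both lymphomas (mean) over the 12 lines (x axis, points with SE bars), by role group; blue marks edgeR adjusted p under 0.05 and the dashed line the median of all genes tested. The 21 blue points lie between -1.15 and -0.51, the 4 polymerase I genes at the top are grey, and Ppan alone lies right of 0.

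Other genes of the pathway were lower in the lymphomas as well. Of 122, 68 fell and 0 rose (2, Rrp36 and Gltscr2, were higher at an unadjusted p under 0.05, and 0 in DESeq2). Their median log2 fold change was -0.68, and both lymphomas lay below all lines for 61. The counts of genes that fell were 4 of 11 for polymerase I transcription, 8 of 12 for snoRNP assembly, 23 of 40 for the small subunit, 26 of 46 for the large subunit and 7 of 13 for the exosome and other exonucleases. The smallest p belonged to Pno1, a late factor of the small subunit, with 41.6 and 33.5 CPM in the ASNase and vehicle lymphomas against 70.4 to 91.1 CPM in the lines (-1.09, edgeR adjusted p = 0.000180). Wdr36, of the early small subunit particle, and the large subunit factors Ddx18 (an RNA helicase), Rrp15 and Rpf2 followed, with log2 fold changes of -0.95, -1.16, -1.15 and -0.86.

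The lymphomas differed from the lines in their cell make-up as well, and in bulk RNA fewer cells of a type and less RNA per cell cannot be told apart. The summed level of 12 fibroblast markers was 2594 CPM in the ASNase lymphoma and 1087 CPM in the vehicle lymphoma, against 0.0342 to 2.04 CPM in the lines, where Col6a1, Dcn, Pdgfra and Postn had 0 counts. The 12 macrophage markers summed to 764 and 379 CPM in the ASNase and vehicle lymphomas, against 3.76 to 65.4 CPM in the lines, where C1qa, C1qb and Marco had 0 counts. The 10 endothelial markers summed to 203 and 308 CPM in the ASNase and vehicle lymphomas, against 36.1 to 477 CPM in the lines. Both sums lay inside the range of the lines, where Tie1 and Cldn5 had 0 counts but other markers of the list did not. The 12 T cell markers summed to 18.2 and 82.4 CPM in the ASNase and vehicle lymphomas, against 1.23 to 42.6 CPM in the lines. The sum of the ASNase lymphoma lay inside the range of the lines, where Cd3e, Cd4, Trbc2 and Icos had 0 counts. Of these lists 12 of 12, 10 of 12, 6 of 10 and 8 of 12 genes rose, in that order of lists. The 14 pan-B markers summed to 5760 and 6838 CPM in the ASNase and vehicle lymphomas, against 4982 to 7046 CPM in the lines, and 0 of 14 passed the test in edgeR, with 2 at an unadjusted p under 0.05 and 1 higher in DESeq2.

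Most proliferation genes were lower in the lymphomas as well. Of 26 such genes 20 fell, their median log2 fold change was -0.90, and they summed to 5702 and 5545 CPM in the ASNase and vehicle lymphomas, against 7693 to 9488 CPM in the lines. Mki67, a marker of cycling cells, had 1489 and 1076 CPM in the ASNase and vehicle lymphomas against 847 ± 196 CPM in the lines (SD, n = 12), and was called higher by DESeq2 but not by edgeR (0.58, SE 0.22, edgeR adjusted p = 0.0676, DESeq2 adjusted p = 0.0374). The part of other cells and of cell division in the fall of the members was not tested. When libraries were scaled to the pan-B markers instead, 25 members fell, among them all 21 of the main test, against 14.5% of all genes. The members' median was then -0.96, and the median of all genes shifted by -0.24. The members' median minus that of all genes was -0.71, a difference that a change of scaling can hardly alter.

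All residual spread came from the lines, which treats a lymphoma as if it varied like a line, and both lymphomas derive from line 506 and are not independent. Without the vehicle lymphoma 8 members fell (background 4.55%), without the ASNase lymphoma 4 fell (background 3.76%), and 4 fell in both fits, namely Dkc1, Ncl, Mybbp1a and Bysl. With libraries scaled to total counts 7 fell (background 5.4%), namely Dkc1, Gar1, Ncl, Npm1, Mybbp1a, Nop14 and Bysl, and the median of all genes shifted by 0.22. The members' median minus that of all genes was -0.69 there and -0.69 in the main test. A scaling moves all genes of a library alike, so this difference could hardly change and is no check. Dkc1 and Bysl, which stand in both of these lists, are among the members whose values are uncertain because of an overlapping neighbour gene.

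Myc itself did not pass the test between the tumours and the lines. It had 1234 CPM in the ASNase lymphoma and 1401 CPM in the vehicle lymphoma, against 478, 1783 and 2785 CPM as the lowest, median and highest line (-0.42, SE 0.48, edgeR adjusted p = 0.574). The lowest line was 504, and the next were 517 and 309 with 1036 and 1185 CPM. Lines 549, 136 and 115 had the most, with 2543, 2754 and 2785 CPM. Counts of the Myc entry do not separate transgene from endogenous transcripts. Mycn and Mycl, the other Myc family members, were at 0 to 0.120 CPM and 0 to 0.448 CPM in the lines.

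The members were then related to Myc over the 12 lines, as the slope of log2 level on log2 Myc, that is, the log2 change for each doubling of Myc. Many of the members were higher in lines with more Myc. Of the 40 members, 14 had a positive slope and 0 a negative one at an edgeR adjusted p under 0.05 (0 were negative at an unadjusted p under 0.05 or in DESeq2), while of all 10697 genes tested 2.94% were positive and 4.9% negative. All 40 slopes were above 0, with a median of 0.27 against 0.01 over all genes, and 25 were positive at an unadjusted p under 0.05, against 11.6% of all genes. DESeq2 called 18 members for a positive slope, against 6.46% of all genes: the 14 of edgeR and Dkc1, Ebna1bp2, Mrto4 and Noc3l (adjusted p = 0.0352, 0.0404, 0.0247 and 0.0317). By role group the members called in edgeR were 0 of 4 for polymerase I transcription (2 at an unadjusted p under 0.05, 0 in DESeq2), 2 of 4 for box C/D and 2 of 4 for box H/ACA. They were 3 of 5 nucleolar proteins of several functions, 3 of 10 small subunit factors and 4 of 13 large subunit factors.

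Most of these calls were lost without line 504, the line with the lowest Myc. Without it 2 members, Nolc1 and Nop10, had an edgeR adjusted p under 0.05, against 0.559% of all genes, and 31 of 40 slopes were above 0 with a median of 0.19. Of the 14 slopes called over 12 lines, 8 were as large or larger without line 504 and 6 were smaller, and the SE was larger for all 14. For example, Rrp9, Nop14 and Noc4l had slopes of 0.47, 0.45 and 0.47 without it (SE 0.14, 0.13 and 0.14), with edgeR adjusted p = 0.119, 0.116 and 0.119. Ftsj3, Ppan and Nob1 had the smallest, 0.19, 0.20 and 0.12. Without line 115, which had the most Myc, 7 members were called (background 1.13%), and without line 549, 9 were (background 1.66%). Line 504 also had the highest sums of endothelial markers (477 CPM, of which Egfl7 made 309.8 CPM) and macrophage markers (65.4 CPM, of which Mrc1 made 54.6 CPM) among the lines, and their part in its low member levels was not tested. Tie1, Cldn5, Kdr, C1qa and C1qb had 0 counts in it. Of the pan-B markers, Ebf1 and Blnk were highest in line 504 (246 and 472 CPM, against medians of 106 and 201 CPM over the lines). Cd22 was lowest in it (160 CPM, median 282 CPM), while the sum of the 14 markers was 5744 CPM in it (median 5822 CPM). In this line the low Myc cannot be told apart from these other differences. Of 26 proliferation genes 0 had a positive slope (1 at an unadjusted p under 0.05, 0 in DESeq2) and 1 a negative one (8 at an unadjusted p under 0.05, 3 in DESeq2). The edgeR call was Mcm7, a subunit of the replicative helicase (-0.31, edgeR adjusted p = 0.0197), and the slope of Mki67 was 0.05 (SE 0.13).

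Nolc1 had the steepest slope. It was at 380.1 CPM in line 504 and 1472 CPM in line 115, the ends of the Myc range, and the slope was 0.82 (SE 0.12, edgeR adjusted p = 0.00265). Without line 504 it was 1.07 (SE 0.16, edgeR adjusted p = 0.0195). The lymphomas had 323 CPM (ASNase) and 365 CPM (vehicle), below line 504 although their Myc was higher than in that line.

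Rrp1b had 117 CPM in line 504 and 524 CPM in line 115 and the widest range of the 40 members over the lines (4.48-fold), with a slope of 0.67 (SE 0.10, edgeR adjusted p = 0.00379). Without line 504 the slope was 0.75 with an edgeR adjusted p = 0.0509. Nop10 had 117 CPM in line 504 and 282 CPM in line 115, with a slope of 0.49 (SE 0.09, edgeR adjusted p = 0.00917), and of 0.68 without line 504 (edgeR adjusted p = 0.0323). Its partner Nhp2 was also called (0.33, edgeR adjusted p = 0.0211), while Dkc1 and Gar1 had 0.19 and 0.21 without a call in edgeR.

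Rrp9 had the smallest p in the box C/D snoRNP, with a slope of 0.44 (SE 0.09, edgeR adjusted p = 0.0138), and Nop56 was the other called protein there (0.27, edgeR adjusted p = 0.0321). Nop14 had the smallest p of the small subunit factors (0.39, SE 0.08, edgeR adjusted p = 0.0185), beside Noc4l (0.38) and Nob1 (0.24). Taf1d had the smallest p in polymerase I transcription but no call (0.34, SE 0.12, edgeR adjusted p = 0.0914). The remaining called members were Npm1 (0.30), Gnl3 (0.29), Bop1 (0.32), Ftsj3 (0.34) and Ppan (0.34).

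At the other end, Ubtf had a slope of 0.01 (SE 0.07), and it was -0.09 without line 504. Bysl, Fbl and Mybbp1a, which fell in the lymphomas, had slopes of 0.12, 0.14 and 0.14 without a call. Of the 12 members called for a positive slope (edgeR adjusted p under 0.05) whose window was read, 0 held the E-box shown above, so the 7 E-box genes were all outside the called set.

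**Figure D3:**
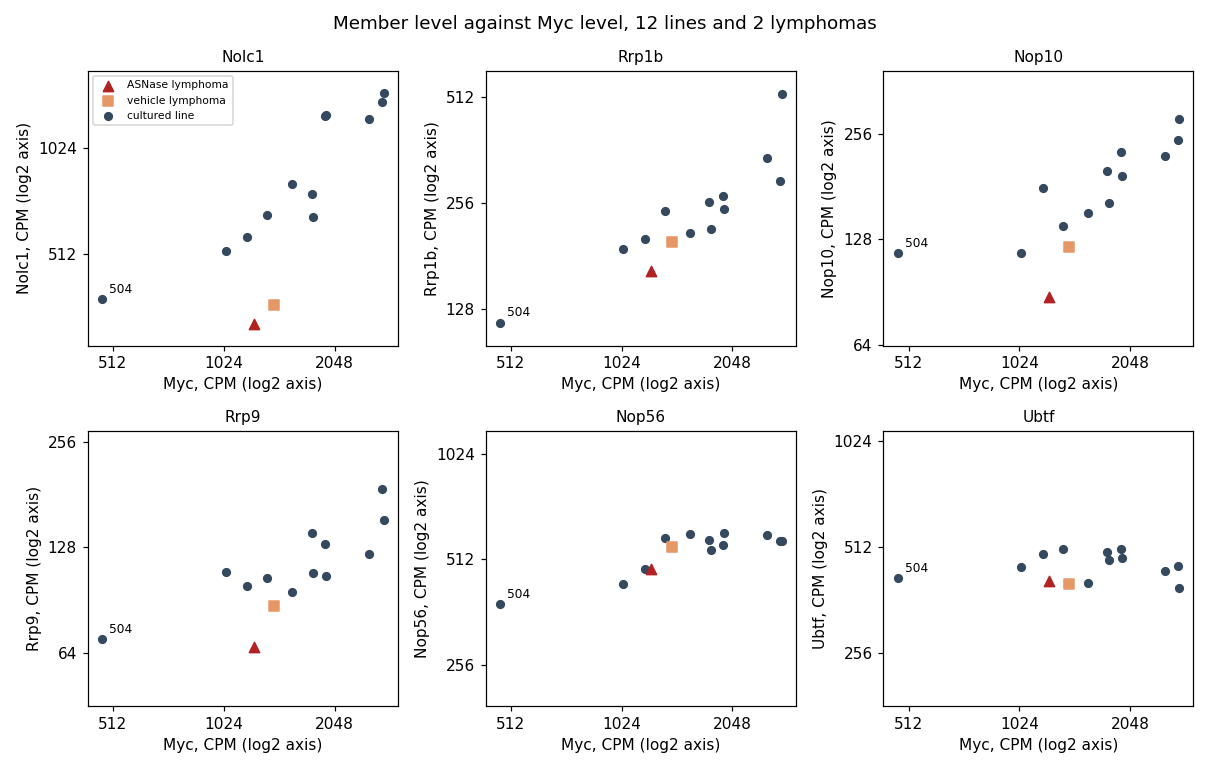
Level of 6 members (y axis, CPM, log2 axis) against Myc (x axis, CPM, log2 axis) in the ASNase lymphoma (triangle), the vehicle lymphoma (square) and the 12 lines (circles, line 504 marked). Nolc1, Rrp1b, Nop10 and Rrp9 rise with Myc over the lines with line 504 lowest or near lowest. Nop56 is lower in lines 504, 517 and 309, which have the least Myc, and about level over the other lines. Ubtf stays level, and both lymphomas lie below lines of like Myc for Nolc1 and Nop10.

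**Figure D4:**
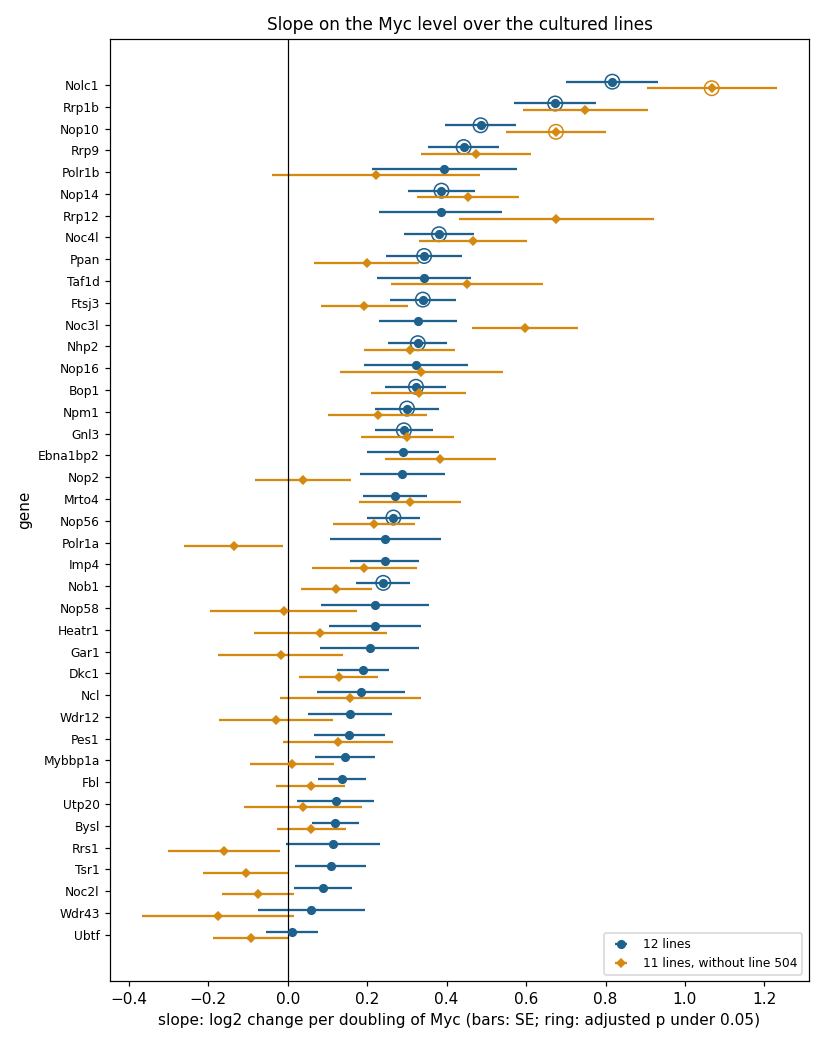
Slope on Myc of each of the 40 genes (x axis, log2 change per doubling of Myc, points with SE bars), over 12 lines (circles) and over 11 lines without line 504 (diamonds); rings mark edgeR adjusted p under 0.05. All 40 circles lie right of 0 with 14 ringed, and of the diamonds 31 lie right of 0 with Nolc1 and Nop10 ringed.

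Among the 122 other genes of the pathway, 24 had a positive slope and 0 a negative one at an edgeR adjusted p under 0.05 (1 was negative at an unadjusted p under 0.05, 0 in DESeq2). DESeq2 called 40 positive, 108 slopes were above 0 and the median was 0.20. Rcl1, a small subunit factor that acts on the precursor RNA, had 115, 216 and 562 CPM as the lowest, median and highest line, and the smallest p (0.82, SE 0.15, edgeR adjusted p = 0.00829). The large subunit factors Nol9 (a polynucleotide kinase), Rsl24d1, Sdad1 and Lsg1 (a GTPase of the late particle) followed, with slopes of 0.33, 0.44, 0.46 and 0.31. Without line 504, 3 of the 122 were called.

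The members varied among the lines about as much as other genes of their level. The SD of log2 CPM over the 12 lines had a median of 0.29 over the members, against 0.35 over all genes tested and 0.27 over the 3399 genes at least as abundant as the lowest member. Bysl, Ubtf and Fbl varied least, with SDs of 0.12, 0.12 and 0.13. Nolc1, Polr1b and Rrp1b varied most, with SDs of 0.64, 0.56 and 0.52. Polr1b had 170.1 CPM in the ASNase lymphoma and 188 CPM in the vehicle lymphoma, against 73.3, 231 and 248 CPM as the lowest, median and highest line. Its lowest value was in line 524, which was also the lowest line for Ncl, Utp20 and Pes1, and line 801 was the lowest for Heatr1 and Nop16. Line 115 was the highest line for 12 members and line 136 for 9, which are the 2 lines with the most Myc, and line 649, with 1344 CPM of Myc, was the highest for 6. The slope of Polr1b on Myc was 0.39 (SE 0.18, edgeR adjusted p = 0.192).

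Line 506, from which both lymphomas derive, was also set against the other 11 lines. In edgeR 0 of 40 members passed the test (background 0%), and 0 did at an unadjusted p under 0.05 (background 0.636%), and DESeq2 called 0 of 40. With 1 library of line 506 edgeR called no gene at all, so these counts do not tell whether the members stood apart in it. The median log2 difference was 0.12, with 33 of 40 members at a positive value. Against line 506 itself, 39 of 40 members were lower in both lymphomas, all except Ppan. Of all genes at 5 CPM or more in either library, 5945 of 10516 were lower in the ASNase lymphoma and 5810 of 10493 in the vehicle lymphoma. A log2 ratio of -1 or less, without a test since each is 1 library, was reached by 16 of 40 members in the ASNase lymphoma (background 12%) and by 8 of 40 in the vehicle lymphoma (background 12.2%), with medians of -0.88 and -0.75. Nolc1 had the lowest ratio, 0.256 in the ASNase lymphoma (95% interval 0.250 to 0.262) and 0.289 in the vehicle lymphoma (0.283 to 0.295), against 1263 CPM in line 506. Rrp12 came next at 0.292 and 0.377 in the ASNase and vehicle lymphomas, against 190.4 CPM in line 506. The intervals are exact binomial and leave out all error but that of counting.

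ASNase removes asparagine, and the ASNase lymphoma was set against the vehicle lymphoma to see whether the members differed between the treatments. With 1 library each there is no replicate check and no test. A log2 ratio of 1 or more in either direction, with 5 CPM or more in either library, was reached by 0 of 40 members, while 2.7% of genes passed it as higher and 1.99% as lower in the ASNase lymphoma. The median log2 ratio was -0.17 over the members and -0.05 over all genes, and 30 of 40 members were lower in the ASNase lymphoma, against 55.3% of all genes at 5 CPM or more. The exact 95% interval of the ratio lay below 1 for 28 members, against 42.5% of all such genes, above 1 for 8, against 33.2%, and included 1 for 4. All 13 large subunit factors had a ratio below 1, from 0.710 for Nop2 (0.683 to 0.738) to 0.948 for Wdr12 (0.903 to 0.995). These ratios and counts are those of TMM scaling. Scaling to the pan-B markers raised all ratios alike and turned the members' median log2 ratio to 0.09. Many members then lay above 1, and the intervals do not cover this.

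The 8 members with an interval above 1 under TMM scaling were Taf1d, Nop58, Dkc1, Ncl, Npm1, Gnl3, Utp20 and Wdr43. Taf1d had the highest ratio, 1.36 (1.29 to 1.43), and Utp20 the next, 1.22 (1.16 to 1.27). Nop10 had 0.718 (0.683 to 0.755), Bysl 0.830 (0.771 to 0.893) and Nolc1 0.884 (0.860 to 0.908). With libraries scaled to the pan-B markers the median log2 ratio was 0.09 over the members and 0.21 over all genes. The difference was -0.12, against -0.11 with TMM scaling, and a change of scaling can hardly alter it. The fibroblast marker sum was 2594 CPM in the ASNase lymphoma and 1087 CPM in the vehicle lymphoma, and its part in these ratios was not tested.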

How the data were processed

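The deposited table holds raw counts per gene for 14 libraries. Per the labels' protocols, total RNA was made into stranded mRNA libraries and sequenced in paired ends. The submitters' processing notes name STAR 2.4.0, Subread 1.5.0-p3 with featureCounts, and the build mm10 (GRCm38). How strand and reads with several matches were counted is not given in the sources used here. All 14 columns matched a sample title, and 100 spike-in and phage entries (5 to 534 counts in each library) were left out. Coordinates are those of the deposited table.

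Counts were analysed with edgeR 4.0.16 in R 4.3.3 (TMM scaling, filterByExpr, glmQLFit and glmQLFTest), with Benjamini-Hochberg adjustment over all genes tested and a threshold of 0.05. The lymphoma fit used 3 groups and had 11 residual degrees of freedom. The Myc fit used the log2 CPM of Myc with a prior count of 2, and left Myc out of the genes tested. DESeq2 1.42.0, limma 3.58.1, other scalings and leaving out libraries were alternatives. Single libraries were compared by a log2 ratio of 1 at 5 CPM or more in either library, with exact binomial 95% intervals. Members and lists were chosen with earlier results of these data known. Named members had, in each role group, the smallest p in either test, or the 3 largest or smallest SDs among lines. Of the other biogenesis genes the 5 with the smallest p in each test were named. Naming of marker genes, and of small sets that this rule leaves out, came after seeing values. Nothing in the sources used here gives batches or dates, or says that a line was sequenced from more than 1 culture, so p-values measure the spread between lines. Promoter windows are from RefSeq. The tests were run on simulated data only with log2 effects of 1 or more, so this run does not cover the smaller effects of most members. Plots used matplotlib 3.10.9 in Python 3.11.15.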

Additional observations from a re-analysis of the deposited data

How the results depend on the processing

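With libraries scaled to total counts, 7 members and 36 other biogenesis genes fell, the median over the members was -0.48, and the lymphoma values of Polr1b, Taf1d and Ubtf turned to 0.0099, 0.042 and 0.053. The slope of Ubtf on Myc then turned to -0.021, and the medians against line 506 were -0.54 in the ASNase lymphoma and -0.46 in the vehicle lymphoma. This scaling moved the median of all genes by 0.22, and 75.7% of its calls were higher, against 54.8% in the main test. With scaling to the pan-B markers that share was 42.8%, the members' median was -0.96, the median of vehicle lymphoma against line 506 was -1.17, and the median of ASNase against vehicle turned to 0.089. Without a filter 9 members were called for a positive slope (0.952% of all genes were) and Ubtf turned to -0.0073, DESeq2 called 40 other biogenesis genes for a positive slope, and with untransformed Myc Ubtf turned to -0.017. Without both lines farthest in Myc (504 and 517), 1 member and 0 other genes were called for a positive slope, and Ubtf and Wdr12 turned to -0.15 and -0.10. Leaving out 1 library at a time gave 4 to 26 members and 21 to 78 other genes that fell, and 2 to 18 members and 3 to 33 other genes called for a positive slope. Taf1d ran from -0.41 to 0.036 in the lymphomas, and the slopes ran from -0.093 to 0.053 for Ubtf and from -0.029 to 0.19 for Wdr12. The cause of these changes was not tested. Of the 13 members followed through the alternatives, the other 9 kept their direction in both tests. No paired analysis was possible because the labels number the lines by mouse, give no replicate numbers, and both lymphomas derive from line 506 alone. The lowest count of any member in any library was 1182 (Noc3l, ASNase lymphoma).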
